A study of Mus musculus with 6 samples.

Results

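The receptor for epidermal growth factor (EGF), its relatives and the ligands that bind them were followed in colonic epithelium of mice with and without miR-31. The members are 10 mouse genes, 7 ligands (Ereg, Areg, Hbegf, Egf, Tgfa, Btc and Epgn) and 3 receptors (Egfr, Erbb2 and Erbb3), out of 23462 genes with a symbol on the array. They were taken by name, as every non-control probe whose transcript accession belongs to one of these genes, which gave 14 probes. The study compared 3 wildtype mice with 3 miR-31 knockout mice, all labelled male, using 1 Agilent one-colour array per mouse. Its stated subject is the pattern of gene expression in the knockout colon. The labels give the tissue as colonic epithelium, separated by flow according to the design note. The strain, the age, the flow gate and the way the knockout was made are not given in the sources used here. The p-values measure the spread between these 6 mice and their arrays, and whether the groups were littermates is not given.

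The EGF family signals from cell to cell. The ligands are made as membrane-anchored precursors, are cut free by metalloproteases, and bind EGFR or ERBB3 and ERBB4, which then pair with each other or with ERBB2, a receptor that has no ligand of its own. Pairing switches on the kinase and passes the signal into the RAS-ERK and PI3K-AKT cascades. In the gut lining this signal supports division of crypt stem and progenitor cells and the closure of wounds. A microRNA such as miR-31 is a short RNA that pairs, mainly through bases 2 to 8 (the seed), with messenger RNAs and lowers their level or translation.

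The RNA removed in the knockout is shown here because the seed defines which messages it can pair with. Both arms come from the minus strand of chromosome 4 (RefSeq, GRCm38.p6), miR-31-5p at chr4:88910614-88910635 and miR-31-3p at chr4:88910577-88910599, and capitals mark the seed.
mmu-miR-31-5p: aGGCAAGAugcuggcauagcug
mmu-miR-31-3p: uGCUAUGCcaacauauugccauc
Of 1738 mature mouse miRNAs in the same table, 0 others carry either seed. Sites for these seeds in the members' messages were not analysed here. The array has 0 probes for Mir31 or its host transcript Mir31hg, so these data do not check the deletion.

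Values are log2 processed intensity minus the 75th percentile of the array, so 0 is the brightness of a spot at that percentile. They place 1 probe on different arrays and do not rank different genes against each other. The 75th percentile lay between 3005 and 3539 intensity units, the share of probes well above background ran from 66.6% to 75.6%, and 0 spots were saturated. The extraction software marked between 4.95% and 17.3% of spots per array as uneven or outlying. These spots were left out, and they were fewest on wildtype replicate 3 (4.95%) and knockout replicate 3 (7.44%). All 6 arrays lie on 1 slide, with wildtype in row 2 and knockout in row 1, so slide row and genotype cannot be told apart.

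The label male was set against sex-linked genes, chosen after their values were seen, and 4 of the 6 arrays go against it. Xist, the RNA that silences 1 X chromosome in females, read 0.43, 0.02 and -0.39 in wildtype and -6.28, -6.99 and -0.24 in knockout, in replicate order. It was well above background on the 3 wildtype arrays and knockout replicate 3 and on no other. Ddx3y, a Y-linked RNA helicase gene, read -8.73, -9.44 and -9.35 in wildtype and -0.23, -0.31 and -8.94 in knockout. It was well above background on knockout replicates 1 and 2 only, and so was the Y-linked gene Uty. The Y-linked genes Eif2s3y and Kdm5d split less cleanly. For Eif2s3y, 1 probe read -8.57, -9.38 and -9.17 in wildtype and 1.76, 1.74 and -5.11 in knockout, well above background on all 3 knockout arrays. Its other probe was well above background on all 6 arrays, highest on knockout replicates 1 and 2. A Kdm5d probe was well above background on wildtype replicate 3 (-5.69) as well as on knockout replicates 1 and 2. All wildtype arrays and knockout replicate 3 thus carry Xist without Ddx3y and Uty, and knockout replicates 1 and 2 carry the reverse. In this respect the groups differ by more than genotype, so each member is also given with this pattern as a block. In that fit knockout replicate 3 alone is set against the wildtype arrays, and it is assumed to vary like the others.

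Of 27916 features tested, 41 were higher and 17 lower in the knockout at an adjusted p under 0.05 (limma, Benjamini-Hochberg), and the median log2 change of all features was -0.06.

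No member passed that threshold. Of the 10 members, 8 could be tested and limma called 0, where 0.208% of all tested features were called. At an unadjusted p under 0.05 there were 2 of 8, Ereg on the higher side and Hbegf on the lower, against 10.7% of all tested features. Of the 5 tested members with all 3 unmarked arrays in each group, Ereg and Hbegf were the 2 whose groups did not overlap, against 16.9% of the 24064 features with such arrays. Among the 8, 4 had a log2 change above 0 and 4 below, with a median of -0.0066, and their adjusted p-values ran from 0.273 to 0.986. Areg and Tgfa were not tested, because on 2 of 3 wildtype arrays their spots were marked. Because the RNA came from a mixture of cells, fewer cells making a transcript and less of it per cell cannot be told apart.

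**Figure D1:**
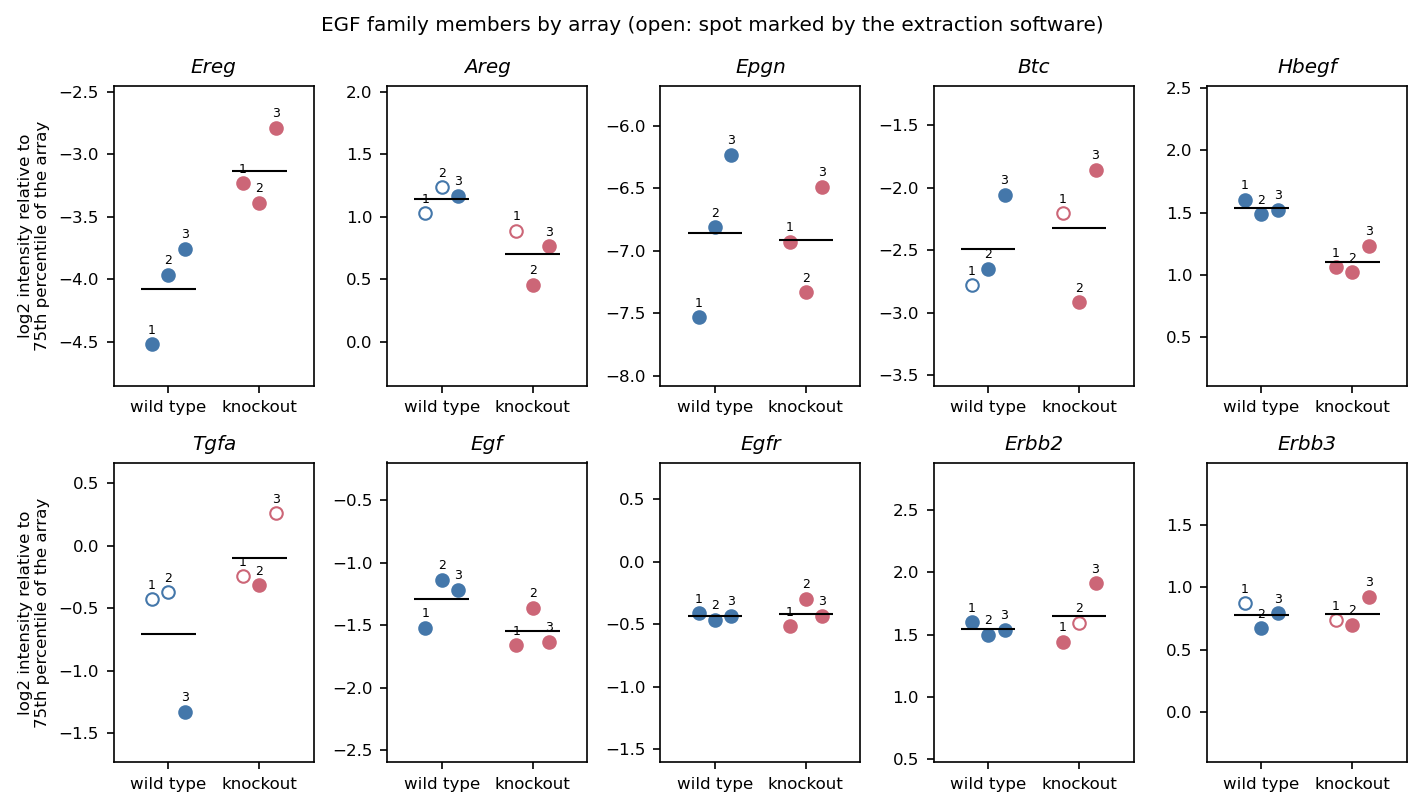
Log2 intensity relative to the 75th percentile of the array for each member, 1 point per array with its replicate number. Filled points are unmarked spots, open points are spots marked by the extraction software, the line is the mean of all 3 arrays of a group, and every panel spans the same log2 range. Ereg lies higher and Hbegf lower on all 3 knockout arrays, and with marked spots kept Areg lies lower and Tgfa higher on all 3.

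Epgn, Ereg, Areg and Btc encode ligands of the EGF receptor and stand as 4 consecutive protein-coding genes on chromosome 5 in the RefSeq gene order. Ereg encodes epiregulin, a ligand of EGFR and ERBB4. Its single probe read 131, 199 and 248 intensity units on the wildtype arrays (replicates 1 to 3) and 377, 298 and 495 on the knockout arrays. On the log2 scale these are -4.52, -3.96 and -3.75 against -3.23, -3.39 and -2.79. Every knockout array was above every wildtype array, and the gap between the closest arrays was smaller than the range within either group. The group means were -4.08 ± 0.40 (SD, n = 3) and -3.13 ± 0.31 (SD, n = 3). The log2 change was 0.94 ± 0.24 (SE), with a 95% interval of 0.37 to 1.52, which is 1.92-fold with an interval of 1.29 to 2.87. With the Xist and Y gene pattern as a block it was 1.29 ± 0.31 (SE; adjusted p = 0.261, limma). In the fit without the block its unadjusted p was 0.00615 and its adjusted p 0.273 (limma), and 2.25% of all features had a smaller p. Ereg therefore has the largest log2 change of the tested members, but it did not pass the threshold.

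Since every knockout array lay above every wildtype array for Ereg, the direction of its difference is fixed in any subset of them. Only the size can vary, and it was taken within slide columns 1 and 2, within 1 run of title numbers and between the 2 mice outside it. The labels do not call that run a batch. The difference was 1.29 between the pair of arrays in slide column 1 and 0.574 between those in column 2. Among the 4 mice that share the run it was 0.932. These are the mice of slide columns 1 and 2, so 0.932 is no separate comparison. Between the remaining 2 mice, which are wildtype replicate 3 and knockout replicate 3 and both carry Xist, the difference was 0.967. These 2 arrays, which also had the fewest marked spots, read highest in their own group for Ereg, for Epgn and for both Btc probes. The part of the array in these values was not tested.

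Areg encodes amphiregulin, a ligand of EGFR. Its spot was well above background on all 6 arrays but was marked on wildtype replicates 1 and 2 and on knockout replicate 1. With the marked spots kept, the wildtype arrays read 1.03, 1.24 and 1.17 and the knockout arrays 0.89, 0.45 and 0.76. All 3 knockout values lay below the wildtype values, opposite in sign to its neighbour Ereg. The log2 change with marked spots kept was -0.44 ± 0.15 (SE, n = 3 and 3), with an adjusted p of 0.412 in limma's fit of all probes and an unadjusted p of 0.0228. It was -0.14 in slide column 1, -0.78 in column 2 and -0.38 ± 0.23 (SE) with the Xist and Y gene block, where its unadjusted p was 0.143. Among unmarked spots alone, the 1 wildtype array at 1.17 stood above knockout arrays at 0.45 and 0.76.

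Btc encodes betacellulin, which binds EGFR and ERBB4, and has 2 probes. The probe used in the test read -2.65 and -2.05 on the unmarked wildtype arrays, replicates 2 and 3, and -2.91 and -1.86 on the unmarked knockout arrays, also replicates 2 and 3. The groups overlapped fully, and the log2 change was -0.04 ± 0.41 (SE, n = 2 and 2; adjusted p = 0.986, limma). With its marked spots kept the change was 0.17, and with the Xist and Y gene block 0.49, so no direction is given. The other probe, unmarked on all 6 arrays, read -5.23, -4.96 and -4.29 in wildtype and -5.22, -5.25 and -4.67 in knockout, a change of -0.22 ± 0.28 (SE).

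Epgn encodes epigen, a low-affinity ligand of EGFR. Its spot was barely above background, at 16.2 to 44.5 intensity units in wildtype and 19.4 to 38.1 in knockout. It was well above background on 2 wildtype arrays and on 1 knockout array. The log2 values were -7.53, -6.81 and -6.23 against -6.93, -7.33 and -6.49, which overlap, and the change was -0.06 ± 0.35 (SE, n = 3 and 3; adjusted p = 0.973, limma). The 95% interval was wide, from -0.90 to 0.78, and the Xist and Y gene block gave 0.37 ± 0.47 (SE).

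Hbegf encodes heparin-binding EGF-like growth factor, a ligand of EGFR and ERBB4 that is also induced by EGFR signalling itself. Its single probe was well above background on all 6 arrays, at 8705 to 9622 intensity units in wildtype and 6350 to 8050 in knockout. The log2 values were 1.60, 1.49 and 1.52 in wildtype and 1.06, 1.02 and 1.24 in knockout, in replicate order. All knockout arrays lay below all wildtype arrays. The group means were 1.54 ± 0.06 (SD, n = 3) and 1.11 ± 0.11 (SD, n = 3). The log2 change was -0.43 ± 0.12 (SE), with a 95% interval of -0.71 to -0.15, and the knockout level was 0.743 of the wildtype level. The unadjusted p was 0.00823 and the adjusted p 0.296 (limma), so Hbegf did not pass the threshold either. With the Xist and Y gene block the change was -0.30 ± 0.17 (SE) and its unadjusted p 0.120. The change was -0.54 and -0.46 in slide columns 1 and 2, and -0.50 among the 4 mice of those columns, which are also the shared number run. Between the other pair it was -0.29.

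Tgfa encodes transforming growth factor alpha, an EGFR ligand of normal gut epithelium. Its spot was marked on 2 wildtype and 2 knockout arrays, which leaves 1 unmarked array a group, at -1.33 in wildtype replicate 3 and -0.32 in knockout replicate 2. With marked spots kept, the wildtype values were -0.43, -0.37 and -1.33 and the knockout values -0.24, -0.32 and 0.26. All knockout values lay above the wildtype values, and wildtype replicate 3 was far below the other arrays. The log2 change was 0.61 ± 0.29 (SE, n = 3 and 3; adjusted p = 0.543 in the fit of all probes, limma) with that array and 0.30 without it. Within slide columns 1 and 2, which leave that array out, it was 0.19 and 0.05, and with the Xist and Y gene block 0.97 ± 0.39 (SE; adjusted p = 0.554, limma).

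Egf encodes the founding ligand of the family, which is abundant in salivary gland and kidney. Its values were -1.52, -1.14 and -1.22 in wildtype and -1.66, -1.36 and -1.63 in knockout, and wildtype replicate 1 lay below knockout replicate 2. The log2 change of -0.26 ± 0.15 (SE, n = 3 and 3) had a 95% interval of -0.62 to 0.11 and an adjusted p of 0.596 (limma), and the change was -0.34 ± 0.23 (SE) with the Xist and Y gene block. Both the interval and the overlap of the groups leave its direction unsettled.

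The groups overlapped for each of the 3 receptors. Egfr, the receptor of all 7 ligands here, has 3 probes, listed under 2 RefSeq transcripts. The probe used in the test read -0.42, -0.47 and -0.43 in wildtype and -0.52, -0.30 and -0.43 in knockout. Its log2 change was 0.02 ± 0.11 (SE, n = 3 and 3; adjusted p = 0.966, limma), with a 95% interval of -0.25 to 0.29, so a change of the size seen for Ereg lies outside it. Both probes of the other transcript, one of them with marked spots kept, gave 0.24 ± 0.14 and 0.33 ± 0.19 (SE), and both intervals include 0. The value for Egfr was 0.26 with normexp background correction, 0.13 when a gene's probes were averaged and 0.0049 with the Xist and Y gene block.

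Erbb2 encodes the receptor that pairs with the other family members. Its tested probe read 1.60, 1.50 and 1.54 in wildtype and 1.44 and 1.91 on the unmarked knockout arrays, replicates 1 and 3. The knockout arrays fell on both sides of the wildtype range, and the log2 change was 0.13 ± 0.18 (SE, n = 3 and 2; adjusted p = 0.837, limma). The second probe gave 0.13 ± 0.15 (SE, n = 3 and 3). With the Xist and Y gene block the tested probe gave 0.37 ± 0.18 (SE; adjusted p = 0.668, limma).

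Erbb3 encodes the receptor of neuregulins, whose own kinase is weak and which acts through its partner. On unmarked arrays it read 0.67 and 0.79 in wildtype and 0.70 and 0.92 in knockout. The log2 change was 0.08 ± 0.17 (SE, n = 2 and 2; adjusted p = 0.907, limma), and 0.19 ± 0.21 (SE) with the Xist and Y gene block. Erbb4, the fourth receptor of the family, is not among the 10 members. It was not well above background on any of the 6 arrays, at 4.93 to 11.6 intensity units.

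**Figure D2:**
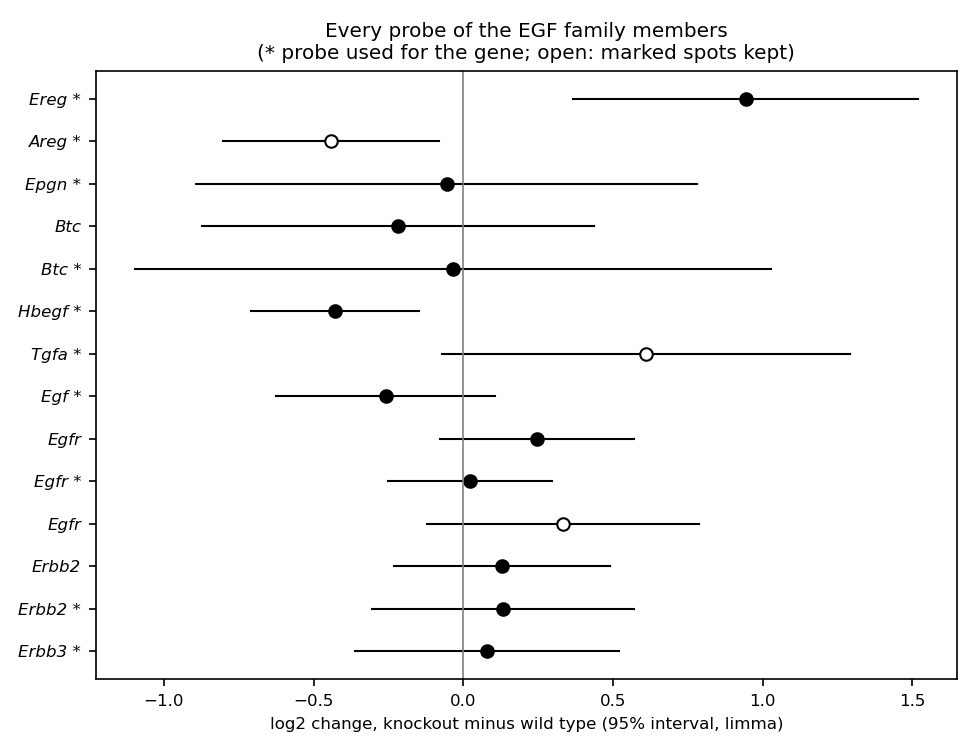
Log2 change (knockout minus wildtype) with its 95% interval for each of the 14 member probes, from limma's fit of all probes. An asterisk marks the probe shown for a gene, and open points use marked spots, since too few unmarked arrays were left. The intervals of Ereg, Areg and Hbegf exclude 0 before adjustment, and the other 11 probes' intervals include it.

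The genes that prepare, restrain and carry the signal were counted in 6 lists of 98 genes, of which 71 could be tested. Of those, 0 were called in either direction by limma, where 0.208% of all features were called. At an unadjusted p under 0.05, 3 were higher and 2 lower, or 7.04% of the 71, against 10.7% of all features. Log2 changes ran from -0.59 to 0.48, 36 above 0 and 35 below, with a median of 0.0021 beside -0.06 for all features. The smallest adjusted p was 0.309. Of the 27 genes not tested, 23 had a probe well above background on all 6 arrays but too few unmarked arrays, among them Adam17, Errfi1, Map2k1, Fos and Ccnd1. The other 4 (Erbb4, Nrg3, Egr3 and Ptgs2) were not well above background on any array.

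Of the neuregulins, the ligands of ERBB3 and ERBB4, 2 were tested. Nrg4, a ligand of ERBB4, had a log2 change of -0.41 ± 0.17 (SE; adjusted p = 0.455, limma), and its groups overlapped. Its other probes gave -0.47 and -0.48. Nrg2 had 0.11 ± 0.20 (SE).

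Of 11 genes for ligand shedding and transport 8 were tested, 4 with a change above 0 and 4 below. The 3 with the smallest p were Cnih4, which helps ligand precursors leave the endoplasmic reticulum, at -0.32 ± 0.14 (SE; adjusted p = 0.484, limma), and Rhbdf1 and Rhbdf2, the partners of the sheddase ADAM17, at 0.29 ± 0.16 and 0.23 ± 0.13. Without knockout replicate 2 these 2 were 0.15 and 0.15, and with the Xist and Y gene block 0.07 and 0.10. Cnih4 was -0.25 ± 0.21 (SE) with that block and -0.21 with normexp background correction. The other Rhbdf1 probe gave 0.37 ± 0.15 (SE). All knockout arrays were lower for Cnih4 and higher for Rhbdf2, while the groups overlapped for Rhbdf1.

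Of 17 receptor inhibitors and degradation factors 13 were tested, with a median log2 change of -0.0088 and a range of -0.17 to 0.15. Stub1, a ubiquitin ligase, Cblc, a member of the CBL ubiquitin ligase family, and Ptpn2, a tyrosine phosphatase that acts on EGFR, had the smallest p, at -0.14, 0.14 and -0.12. Stub1 was -0.067 without wildtype replicate 2 and Cblc 0.078 without wildtype replicate 3. The other Ptpn2 probe went the other way, at 0.11 ± 0.16 (SE, n = 2 and 2), and the mean of its probes gave -0.02. The range of -0.17 to 0.15 was the narrowest of the lists with more than 2 tested genes.

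In the RAS-ERK cascade 14 of 19 were tested, 9 above 0 and 5 below. The adaptor Grb2, which links the receptor to RAS activation, had a log2 change of 0.12 ± 0.12 (SE; adjusted p = 0.768, limma), and the median of the 14 was 0.03.

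In the PI3K-AKT branch 12 of 16 were tested, 6 on each side of 0. Pik3r2, a regulatory subunit of PI3 kinase, stood at 0.33 ± 0.13 (SE; adjusted p = 0.446, limma), although its other probe gave 0.17 ± 0.15 and the Xist and Y gene block 0.19 ± 0.19. Foxo3, a transcription factor inhibited by AKT, had -0.29 ± 0.14 with overlapping groups, and its other probe gave -0.16 ± 0.23. Rictor, a subunit of the kinase complex mTORC2, had -0.24 ± 0.13. Rictor was -0.03 with marked spots kept.

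Of the genes that ERK signalling induces or that feed back on it, 22 of 30 were tested, 10 above 0 and 12 below. Etv5, a transcription factor of the PEA3 group, was higher on every knockout array, with a log2 change of 0.48 ± 0.13 (SE), an unadjusted p of 0.00969 and an adjusted p of 0.310 (limma). With the Xist and Y gene block it was 0.28 ± 0.18 (SE), and its adjusted p ran from 0.156 to 0.749 over the 18 alternatives. Egr1, an immediate early gene, was lower on every knockout array, at -0.42 ± 0.15 (SE; adjusted p = 0.399, limma). With the Xist and Y gene block Egr1 was -0.32 ± 0.23 (SE). Myc had -0.36 ± 0.17 (SE, n = 2 and 2), its other probe had -0.20 ± 0.11, and with marked spots kept the change was -0.08. The list thus held genes on both sides of 0 and a median of -0.05.

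**Figure D3:**
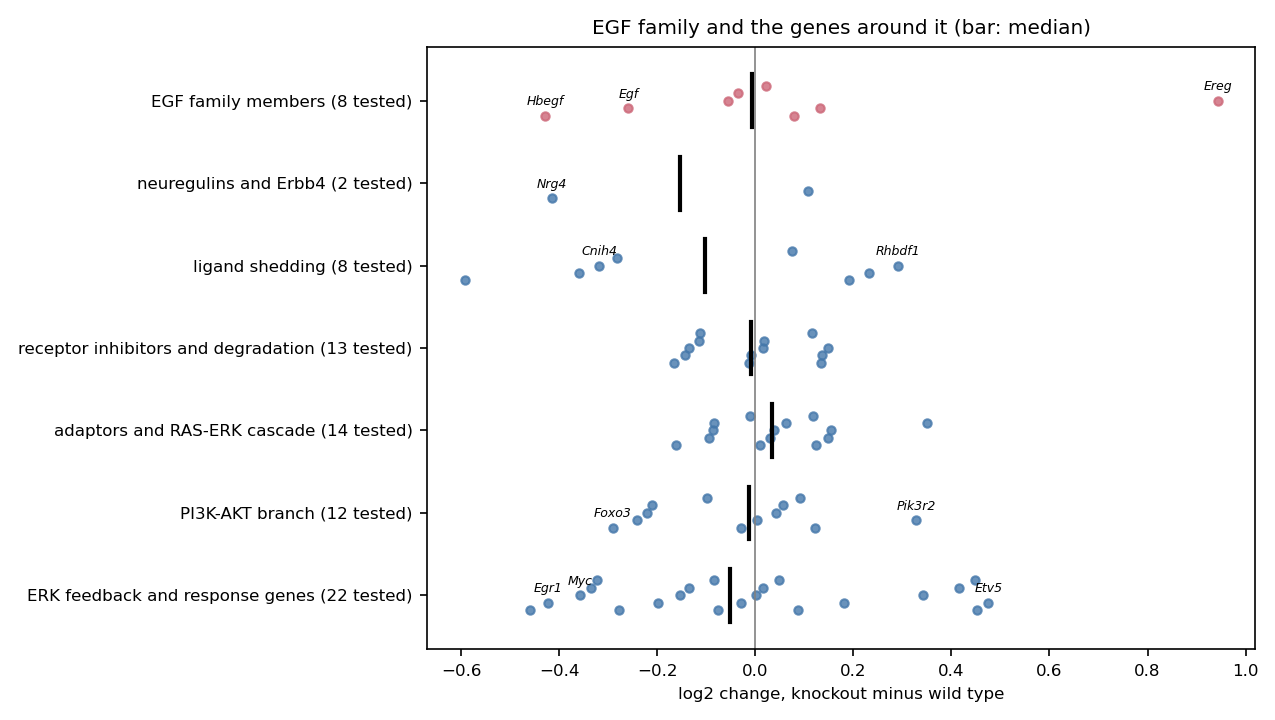
Log2 change (knockout minus wildtype) of each tested gene in the EGF family (red) and in the 6 lists (blue), with the median of each as a bar; vertical position within a row only separates the points. Ereg at 0.94 lies outside the range of the 6 lists, -0.59 to 0.48, and each list holds genes on both sides of 0.

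The genes most like Ereg across the 6 arrays were sought among 11182 genes well above background on every array, by the root mean square difference between log2 values centred on each gene's mean. The 5 nearest were Sh3bp1 (0.154), Phospho1 (0.160), Ttc7b (0.191), Platr26 (0.193) and Kif27 (0.198), in log2 units. All 5 were lowest on wildtype replicate 1, as was Ereg, and 4 of them were highest on knockout replicate 3, the exception being Phospho1. This is a description over 6 arrays, chosen for likeness.

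The tissue label was set against marker genes. All 12 epithelial markers were well above background on all 6 arrays, and 0 of the 5 that could be tested were called. Summed intensity, each divided by the array's 75th percentile, was 148 to 167 in wildtype and 141 to 159 in knockout. Markers of other cell types were present as well. For mast cells, with 8 of 9 markers on the array, the sum was 1.66 to 2.42 in wildtype and 2.60 to 3.06 in knockout. Of their 6 tested markers 1 was called, Mcpt2, a mast cell protease, at 2.10 ± 0.13 (SE; adjusted p = 0.00547, limma). Mcpt1, Cpa3 and Fcer1a had 2.46, 2.14 and 0.69, Cma1 and Tpsb2 had -0.60 and -0.25, and the median of the 6 was 1.39. For macrophages the sum was 5.27 to 5.44 in wildtype and 5.0 to 5.18 in knockout, with 8 of 8 markers on the array and 0 of 7 tested called. Macrophage markers lay on both sides of 0, 2 of the 7 above it, from -1.15 for C1qc to 0.78 for C1qa, while the sum is weighted to the brightest, such as Cd14 at -0.13. For B and plasma cells, with 6 of 6 markers on the array and 0 of 6 tested called, the sum was 0.159 to 0.184 in wildtype and 0.196 to 0.289 in knockout. The mast cell and B and plasma cell sums were thus higher on all 3 knockout arrays, as Ereg was, and the macrophage sum was lower on all 3, as Hbegf was. The part of these cell types in the values of Ereg and Hbegf was not tested.

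Sums for T cells, fibroblasts and smooth muscle, endothelium and innate lymphoid cells overlapped between the groups. The endothelial markers Cdh5, Kdr and Emcn, the fibroblast marker Pdgfra and the glial markers S100b and Sox10 were not well above background on any array. Glial sums were 0.0987 to 0.137 in wildtype and 0.0838 to 0.0986 in knockout, with 0 of 2 tested markers called, and the part of glia was not tested.

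**Figure D4:**
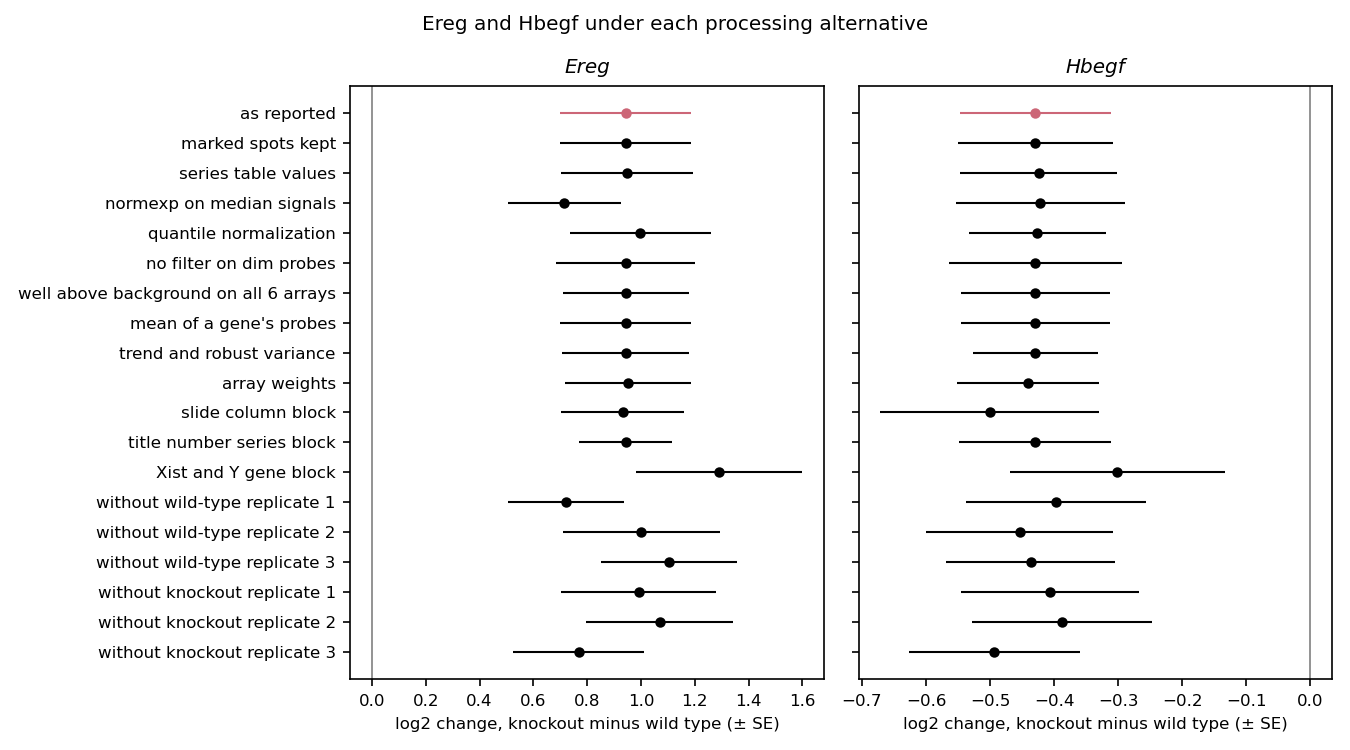
Log2 change (knockout minus wildtype, with SE as bars) of Ereg and Hbegf as reported (red) and under 18 alternatives of processing, blocking or leaving out an array (black). Ereg stays between 0.72 and 1.29 and Hbegf between -0.50 and -0.30.

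Across 18 alternatives of processing, blocking or leaving out 1 array, 0 members were called in any. Ereg had an unadjusted p under 0.05 in all 18, with adjusted p-values from 0.153 to 0.619, and Hbegf in 17, all but the Xist and Y gene block, with adjusted p-values from 0.152 to 0.701. Areg with marked spots kept ran from -0.54 to -0.32 and had an unadjusted p under 0.05 in 12 of 17.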

How the data were processed

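Colonic epithelium RNA of 3 wildtype and 3 miR-31 knockout mice, labelled male although Xist and Y-linked genes go against this on 4 arrays, was hybridised to 1 one-colour (Cy3) array each, per the labels. The deposited scanner output holds 1 processed intensity per spot, background-subtracted by the extraction software and not normalized between arrays. The extraction software was Agilent Feature Extraction, as version 11.5.1.1 per the file headers and as version 10.7 per the submitters' processing notes. The deposited series table holds the same intensity on a linear scale, uncentred: 99.7% of values matched the scanner output to within 0.01 on the log2 scale, and 0 of its columns lacked a sample.

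Of 62976 spots, 3671 control spots and those marked as non-uniform, outliers or by hand were left out, and spots of a probe were averaged. Of 56605 probes, 33767 matched a symbol through RefSeq accessions (GRCm38.p6). The log2 intensity minus the array's 75th percentile was tested for probes well above background on 3 or more of the 6 arrays, with at least 2 unmarked arrays in each group. The brightest probe stands for a gene. Tests used limma 3.58.1 (lmFit and eBayes, two-sided; R 4.3.3, statmod 1.5.0, and the data.table package at version 1.17.8) with Benjamini-Hochberg adjustment over 27916 features at 0.05, and were checked on simulated data. Each member probe was also fitted in a table of all probes. Arrays number 3 a group, which limits the precision.

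Named genes are the 10 members, the 3 genes of smallest unadjusted p in each list (apart from some that are not reported here), and 5 genes most like Ereg. Egr3, Ptgs2 and the other untested genes are named for having no test, and marker genes for their level or call. The members and lists were chosen with earlier results of these data known. The 18 alternatives changed the background correction, normalization, filters, choice of probe or variance model, added a block, or left out 1 array. The block was slide column, the run of title numbers against the remaining mice, or Xist and Y gene pattern. The last was added after seeing the data. Normexp ran on median signals in place of the planned mean signals.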

Additional observations from a re-analysis of the deposited data

How the results depend on the processing

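Of the 8 tested members, 3 (Ereg, Hbegf and Egf) kept 1 direction in all 18 alternatives, and members and listed genes called stayed at 0 in all 18. Several alternatives left the values of these 3 unchanged. For Ereg and Hbegf, whose groups did not overlap, leaving out 1 array could not change the direction. The count of 58 called features was 100 with normexp on median signals (a choice added after seeing the data), 35 with no filter on dim probes, 33 with probes well above background on all 6 arrays, 106 with trend and robust variance, 101 with array weights, 49 with the Xist and Y gene block and 216 with slide column as a block. Leaving out 1 array gave 22 (without wildtype replicate 1) to 116 (without knockout replicate 3). It was 28 without wildtype replicate 2, 38 without wildtype replicate 3 and 30 without knockout replicate 2. Members near 0 changed sign. Btc was 0.17 with marked spots kept and in the series table, 0.0024 after quantile normalization and 0.49 with the Xist and Y gene block. Epgn was 0.10 after quantile normalization, 0.043 with the slide column block and 0.37 with the Xist and Y gene block. Erbb2 was -0.16 with the slide column block and Erbb3 -0.041 with normexp. The listed gene Nrg2 was -0.0012 with the slide column block and -0.048 with the Xist and Y gene block. Leaving out 1 array moved Btc between -0.56 and 0.49, Epgn between -0.39 and 0.26, Egfr between -0.037 and 0.072, Erbb2 between -0.10 and 0.37, Erbb3 between -0.033 and 0.19 and Nrg2 between -0.079 and 0.26. Grb2 was as low as 0.057 without 1 array and 0.25 with the Xist and Y gene block. Tgfa with marked spots kept was 0.12 with the slide column block. The cause of these shifts was not tested. Only the 4 arrays in slide columns 1 and 2 bear on the genotype term of the column block, since the other 2 arrays each have a column of their own. The labels give no replicate number shared between the groups, so no other pairing was fitted. Signal near background limits Epgn and Erbb4, and marked spots limit Areg and Tgfa.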
